A study of Mus musculus with 8 samples.

Results

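The ATF4 amino acid response genes were described in livers of young mice that carried an activating form of RagC or did not. They were 10 genes chosen by name, namely Atf4, Atf5, Ddit3, Asns, Psat1, Psph, Mthfd2, Trib3, Chac1 and Fgf21. A table of normalized read counts for 14506 genes in 8 livers listed 9 of the 10, and Fgf21 was not analysed here. Of the 9 genes, 8 had a mean of at least 10 normalized counts and entered the test between genotypes, and Psat1 did not.

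The livers came from 4 Rragc S74N/+ mice and 4 Rragc +/+ mice. Rragc encodes RagC, one of the Rag GTPases that bring the kinase complex mTORC1 to the lysosome when amino acids are present. Rragc S74N/+ mice carry the serine-to-asparagine change, written by CRISPR editing of blastocysts with additional silent mutations, on 1 of their alleles and in every tissue. All mice were fed standard chow and each liver was used whole. The labels gave ages of 3, 3, 3 and 2.5 months for Rragc +/+ replicates 1 to 4, and of 3, 3, 2.5 and 2 months for Rragc S74N/+ replicates 1 to 4. The study's mice were C57BL/6, of both sexes, while the sex, feeding state and hour of collection of these livers are not given in the sources used here. Replicate numbers only name a liver, and every liver is a separate sample in the labels. Where nothing says how litters were shared, p-values measure the spread between these livers.

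ATF4 is the transcription factor of the integrated stress response. When an amino acid runs short, uncharged transfer RNA activates the kinase GCN2, which phosphorylates the translation initiation factor eIF2α. General protein synthesis then falls while ATF4 protein is made more efficiently from its messenger RNA, and ATF4, paired with C/EBP proteins, induces genes of amino acid synthesis, uptake and transfer RNA charging. mTORC1 also raises the translation and stability of Atf4 messenger RNA in cultured cells. Because ATF4 is controlled largely by translation, messenger RNA counts of Atf4 do not measure ATF4 protein, which was not measured here.

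C/EBP and ATF proteins bind a composite element, written TGATGNAA, that is known from amino acid response genes. The letters were searched on both strands of RefSeq promoter windows of GRCm38.p6, each 300 bases long with 250 bases before the annotated start. They were found in 4 of the 10 members, which are shown here because they are the members whose promoter holds the element. Among all 27025 genes with a window, 4.51% held these letters, and among all 32851 windows 3.97% did. The element is in capitals and each line reads 5′ to 3′ on the strand of the gene.
Chac1, chr2:119351038-119351067, plus strand: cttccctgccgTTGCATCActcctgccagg
Trib3, chr2:152344028-152344057, minus strand: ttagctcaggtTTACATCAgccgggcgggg
Asns, chr6:7693214-7693243, minus strand: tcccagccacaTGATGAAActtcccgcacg
Fgf21, chr7:45615611-45615640, minus strand: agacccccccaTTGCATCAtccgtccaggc

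Positions are counted from the RefSeq start of each window, which can differ from the start of the GENCODE gene given below. In Asns, with a RefSeq start at chr6:7693209, the letters TGATGAAA stood in gene direction from base -23 to base -16. The GENCODE gene starts further upstream, and they lie inside it. In Chac1, Trib3 and Fgf21 they stood on the opposite strand, so that the capitals read as the reverse complement. They began 193 bases before the RefSeq start in Chac1 and 139 bases before it in Fgf21, and these starts are chr2:119351242 and chr7:45615490. In Trib3, with a RefSeq start at chr2:152344060, they lay from base 14 to base 21 after it, and just before the start of the GENCODE gene. The shorter letters TGCAAT, chosen after the sequences were read and partly overlapping the longer element, were present in Trib3, Fgf21 and Psat1. They stood in 9.67% of all genes with a window. The Psat1 match began 133 bases before a RefSeq start at chr19:15925059, on the gene strand, and lies inside the longer GENCODE gene.
Psat1, chr19:15925175-15925204, minus strand: gcgggtggctggTGCAATcccctgctctct
No member of the set other than these 5 held either motif in its window, and a match or its absence says nothing about binding of a factor.

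The kit reads messenger RNAs from their 3′ ends, so reads per gene follow copies more than length, and levels are set side by side between genes here. Other differences between genes in how their reads are captured or assigned were not tested. The whole reads behind the table were recovered and numbered between 4313076 and 6632108 per liver. Hepatocyte markers were abundant in every liver, with all 10 of 10 tested and summed levels of 306119 to 427941 normalized counts in Rragc +/+ and 332259 to 542896 in Rragc S74N/+. Normalized counts of Rragc itself averaged 84.1 ± 20.4 without and 76.6 ± 7.32 with the mutant allele (SD, n = 4 each), and do not read the edit. In whole liver, fewer cells of a type and less RNA per cell cannot be told apart.

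The 2 transcription factors Atf4 and Atf5 dominated the set. They accounted for between 94.0% and 97.0% of the summed normalized counts of the 9 listed members in each liver. Atf5 was the highest member, with a mean over 8 livers of 2998 normalized counts, above 98.2% of tested genes. Atf4 followed with 1617, and the ranges of both genes over livers overlapped. Next came Ddit3 at 85.2 and Trib3 at 56.2, and these 2 neighbours overlapped in their range. Mthfd2 at 28.1, Psph at 17.3, Chac1 at 15.6 and Asns at 10.1 overlapped with their neighbours across livers, and Psat1 was lowest at 5.08. The biosynthetic enzymes of the set were therefore among the less abundant tested genes of these livers, since 23.0% of tested genes lay below Mthfd2 and 0.0805% below Asns, which passed the filter by a margin of less than 1 count.

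**Figure D1:**
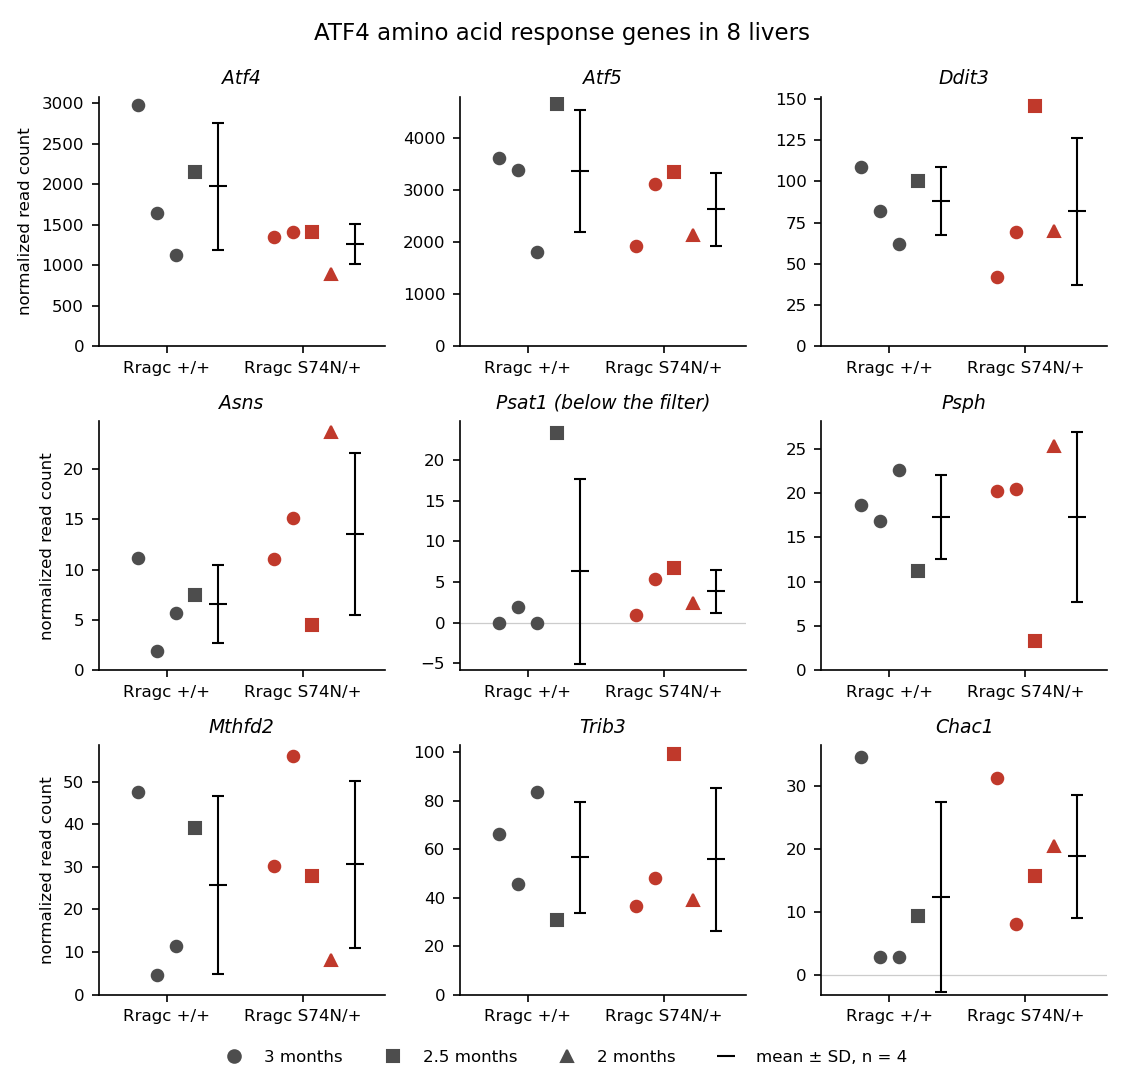
Normalized read counts (vertical axes, linear) of the 9 listed members in 8 livers, by genotype (horizontal axes). Each point is a liver with its age as the symbol, and the bar beside each group is the mean ± SD of 4 livers. The genotypes overlap in every panel, and the 2.5-month-old livers (squares) hold the highest Ddit3, at 146, and the lowest Psph, at 3.34.

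Atf4 (chr15:80255184-80257541, plus strand, GENCODE M21 on GRCm38 as for all members) had a lower mean in Rragc S74N/+ livers, but the difference did not pass the test. In Rragc +/+ it stood at 2974, 1645, 1129 and 2145 normalized counts. In Rragc S74N/+ it stood at 1341, 1412, 1403 and 886. Rragc S74N/+ replicates 1 to 3 were nearly equal and lay inside the Rragc +/+ range, while the 2-month-old Rragc S74N/+ liver lay below all others. The means were 1973 ± 786 in Rragc +/+ and 1261 ± 252 in Rragc S74N/+ (SD, n = 4 each), a ratio of 0.639. On the log2(normalized count + 1) scale Atf4 differed by -0.58 ± 0.28 (SE), with a 95% interval from -1.19 to 0.03 and a limma adjusted p of 0.846. The exact two-sided permutation test over the 70 labellings gave p = 0.20, where the smallest p it allows is 0.0286. Its unadjusted limma p was 0.0591, and the count tools placed it lower still, at 0.0415 with edgeR and 0.0329 with DESeq2, with adjusted p of 0.812 and 0.784.

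The size of the Atf4 difference rested on single livers. Without Rragc +/+ replicate 1, the liver with the highest Atf4, it was -0.36, with an unadjusted limma p of 0.219. Without Rragc +/+ replicate 3, the lowest of its genotype, it was -0.82, with an unadjusted limma p of 0.00788. The adjusted p over these fits was never below 0.329. Within the 3-month-old mice alone, 3 against 2, the difference was -0.36. Atf4 messenger RNA therefore was not shown to differ between genotypes, and the interval still held a fall to 0.438 of the Rragc +/+ level.

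Atf5 encodes a close relative of ATF4 whose messenger RNA is also translated under stress (chr7:44812256-44816658, minus strand). It stood at 3623, 3386, 1809 and 4649 in Rragc +/+ livers. In Rragc S74N/+ it stood at 1931, 3110, 3349 and 2126. The highest liver was a Rragc +/+ and so was the lowest, and the groups overlapped. The means were 3367 ± 1174 and 2629 ± 705 (SD, n = 4 each), and the log2 difference was -0.32 ± 0.29 (SE) with an adjusted limma p of 0.851 and an interval from -0.94 to 0.31. Without Rragc +/+ replicate 3 it was -0.59, with an unadjusted limma p of 0.0351. The Atf5 to Atf4 ratio of normalized counts was 1.22, 2.06, 1.603 and 2.17 in Rragc +/+ and 1.44, 2.20, 2.39 and 2.40 in Rragc S74N/+. Atf5 exceeded Atf4 in all 8 livers.

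Ddit3 encodes CHOP, a C/EBP family factor that ATF4 induces in prolonged stress and that in turn induces Trib3 and Chac1. It stood at 109, 82.3, 62.2 and 99.97 in Rragc +/+ livers. In Rragc S74N/+ it stood at 42.2, 69.3, 146 and 70.2. Both the highest and the lowest value were in Rragc S74N/+ livers, the highest in the 2.5-month-old mouse. The means were 88.4 ± 20.7 and 81.9 ± 44.6 (SD, n = 4 each). The log2 difference was -0.22 ± 0.35 (SE), with an adjusted limma p of 0.896. Without Rragc S74N/+ replicate 1, the liver with the lowest Ddit3, it was 0.045. GENCODE M21 holds a pair of overlapping genes named Ddit3 on the plus strand, at chr10:127290774-127296288 and chr10:127290829-127293753. Whether the release used for counting also holds both was not checked, so how reads were assigned between them is uncertain.

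Trib3 encodes a pseudokinase that ATF4 and CHOP induce together and that limits their activity and binds AKT (chr2:152337422-152344032, minus strand). It stood at 66.2, 45.8, 83.5 and 30.8 in Rragc +/+ and at 36.7, 48.0, 99.2 and 39.2 in Rragc S74N/+. The lowest liver was the 2.5-month-old Rragc +/+ mouse and the highest was the 2.5-month-old Rragc S74N/+ mouse. The means were almost equal, 56.6 ± 23.0 and 55.8 ± 29.3 (SD, n = 4 each). The log2 difference was -0.05 ± 0.39 (SE) with an interval from -0.88 to 0.79, and the adjusted limma p was 0.983. Without the 2.5-month-old mice, a setting chosen after seeing the data, it was -0.61, with an unadjusted limma p of 0.0835.

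Chac1 encodes an enzyme that degrades glutathione, and is a well-known target of ATF4 and CHOP in cells short of amino acids (chr2:119351229-119354381, plus strand). It was spread over a 12.3-fold range. In Rragc +/+ livers it stood at 34.5, 2.81, 2.83 and 9.34, and in Rragc S74N/+ livers at 31.2, 7.999, 15.6 and 20.4. The highest liver of all was Rragc +/+ replicate 1, and the other three Rragc +/+ livers lay within or below the Rragc S74N/+ range. These values rest on 2 to 37 reads per liver. The means were 12.4 ± 15.1 and 18.8 ± 9.72 (SD, n = 4 each), and the log2 difference of 1.07 ± 0.74 (SE) had an interval from -0.53 to 2.67 and an adjusted limma p of 0.846. It was 1.75 without Rragc +/+ replicate 1, with an unadjusted limma p of 0.0271, and 0.57 with edgeR.

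Among the biosynthetic members, Asns encodes asparagine synthetase, which transfers an amide from glutamine to aspartate (chr6:7675169-7693254, minus strand). Its counts in Rragc +/+ were 11.2, 1.87, 5.66 and 7.47, and in Rragc S74N/+ 11.02, 15.1, 4.46 and 23.7. The 2 highest livers were Rragc S74N/+, and the highest was the 2-month-old mouse, with the lowest Atf4. Each value rests on 2 to 29 reads. The means were 6.55 ± 3.87 and 13.6 ± 8.03 (SD, n = 4 each), and the log2 difference of 0.93 ± 0.69 (SE) had an adjusted limma p of 0.846, an exact permutation p of 0.229 and an interval from -0.57 to 2.43. It ranged from 0.53 to 1.34 in the 4 leave-one-out fits in which Asns still passed the filter.

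Psat1 and Psph encode consecutive enzymes of serine synthesis, phosphoserine aminotransferase (chr19:15904678-15947337) and phosphoserine phosphatase (chr5:129765558-129787449), both on the minus strand. Psat1 counts were 0, 1.87, 0 and 23.4 in Rragc +/+ and 0.918, 5.33, 6.69 and 2.45 in Rragc S74N/+. A single liver, the 2.5-month-old Rragc +/+ mouse, held 25 of its 43 reads. The 2 livers with 0 reads allow levels of up to 2.80 and 4.24 normalized counts, at 3 reads each and for counting error only. In a fit without the filter its log2 difference was 0.55 ± 0.98 (SE), with an adjusted limma p of 0.922, while its ratio of means was 0.61. Psph counts were 18.6, 16.8, 22.6 and 11.2 in Rragc +/+ and 20.2, 20.4, 3.34 and 25.3 in Rragc S74N/+. The groups had the same mean, 17.3 ± 4.74 and 17.3 ± 9.61 (SD, n = 4 each), and the log2 difference of -0.24 ± 0.58 (SE) had an adjusted limma p of 0.936. By normalized count, the 2.5-month-old liver of each genotype was the lowest for Psph and the highest for Psat1.

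Mthfd2 encodes a mitochondrial enzyme of one-carbon metabolism, which uses units derived from serine (chr6:83305691-83325908, minus strand). Its counts were 47.5, 4.68, 11.3 and 39.2 in Rragc +/+ and 30.3, 56.0, 27.9 and 8.16 in Rragc S74N/+. Both genotypes held high and low livers, over a 12.0-fold range. The means were 25.7 ± 20.9 and 30.6 ± 19.6 (SD, n = 4 each), and the log2 difference of 0.45 ± 0.71 (SE) had an adjusted limma p of 0.896. It was -0.14 without Rragc +/+ replicate 2, the liver with the lowest count, and 1.49 within the 3-month-old mice, with an unadjusted limma p of 0.0592. An uncharacterised gene overlaps Mthfd2 on the same strand, and its part in these counts was not tested.

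None of the 8 tested members passed the adjusted threshold of 0.05 in limma, none had an unadjusted p under 0.05 and none had groups of 4 livers that did not overlap. Over all 11174 tested genes, 0.00895% passed the adjusted threshold, 5.17% had an unadjusted p under 0.05 and 2.94% had groups that did not overlap. With 8 tested genes, a count of 0 lies near these shares. Of the 8, 5 had a lower and 3 a higher value in Rragc S74N/+, with a median log2 difference of -0.13, beside 0.012 over all tested genes, of which 51.3% were higher. Among the count tools, Atf4 was the 1 member with an unadjusted p under 0.05 in both edgeR and DESeq2, and none passed after adjustment.

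**Figure D2:**
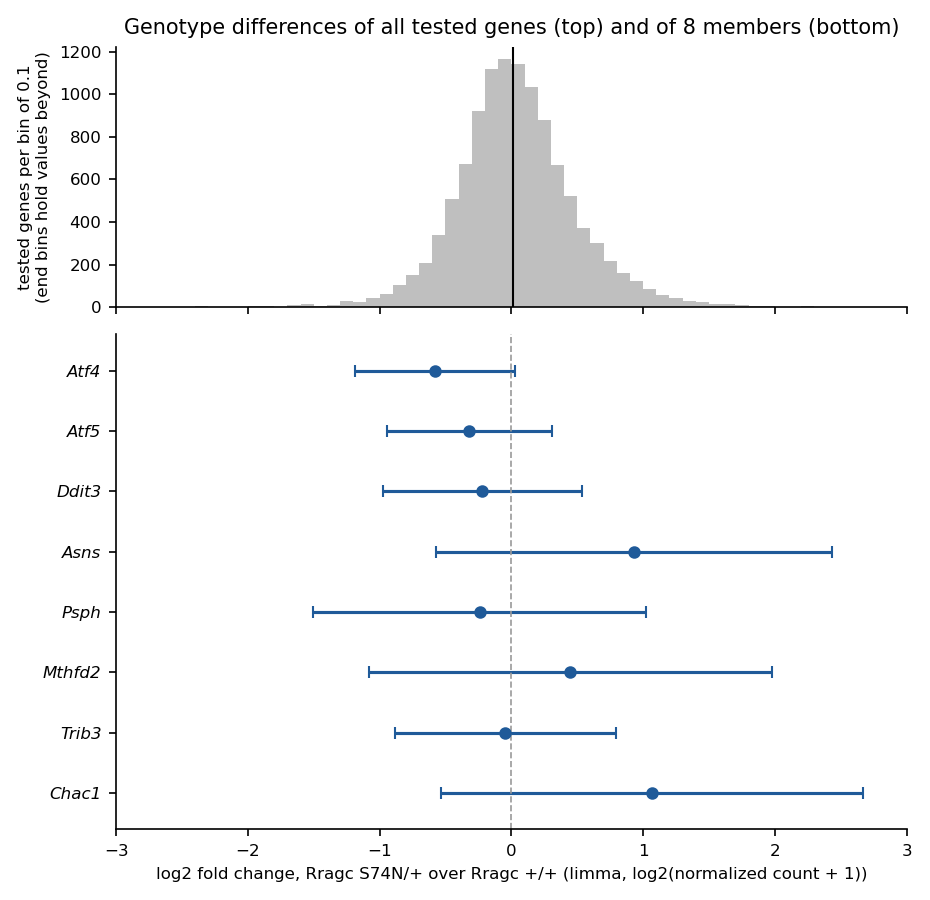
Top, the log2 fold changes of all tested genes as a histogram (genes per bin of 0.1, the end bins holding values beyond the axis) with their median as a line at 0.012. Bottom, the log2 fold change of the 8 tested members (points, Rragc S74N/+ over Rragc +/+) with 95% intervals, each of which crosses 0; Atf4 comes nearest to leaving it, at 0.03.

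The tested members were more variable between livers of 1 genotype than the median gene of similar level. Among them, the SD of the log2 values within genotypes ran from 0.477 for Atf4 to 1.30 for Mthfd2, beside 1.66 for the untested Psat1. It was above the median for genes within a factor of 2 in mean level for all 8 tested members, for example 1.30 against 0.591 for Mthfd2 and 1.21 against 0.735 for Chac1.

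How the members varied together was described over the 28 pairs of tested members, across 8 livers. No pair passed the adjusted threshold: the smallest adjusted exact permutation p was 0.298 for Pearson's r and 0.203 for Spearman's rho. The r was positive in 13 pairs and negative in 15, with a median of -0.0049. The set was not shown to rise and fall as a unit from liver to liver. The 8 livers and the few reads of Asns, Psph and Chac1 limit what these r can show. Among the pairs, 3 had an unadjusted p under 0.05 for r.

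Livers with more Atf4 had more Atf5, with r = 0.75 (exact permutation p = 0.0298) and rho = 0.88 (exact permutation p = 0.00724). The r was 0.88 without the 2 livers farthest from the median of Atf4, and 0.72 after the genotype means were removed. Atf5 and Ddit3 had r = 0.74 (exact permutation p = 0.0319) and rho = 0.79 (exact permutation p = 0.0279), with r = 0.50 without the 2 farthest livers and from 0.66 to 0.83 with any 1 liver left out. Ddit3 and Psph had opposite signs, with r = -0.75 (exact permutation p = 0.0316) and rho = -0.71 (exact permutation p = 0.0576), and r = -0.69 without the 2 farthest livers. No age held 6 livers, so r was not computed within ages. The points of every pair come from the same 8 libraries.

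**Figure D3:**
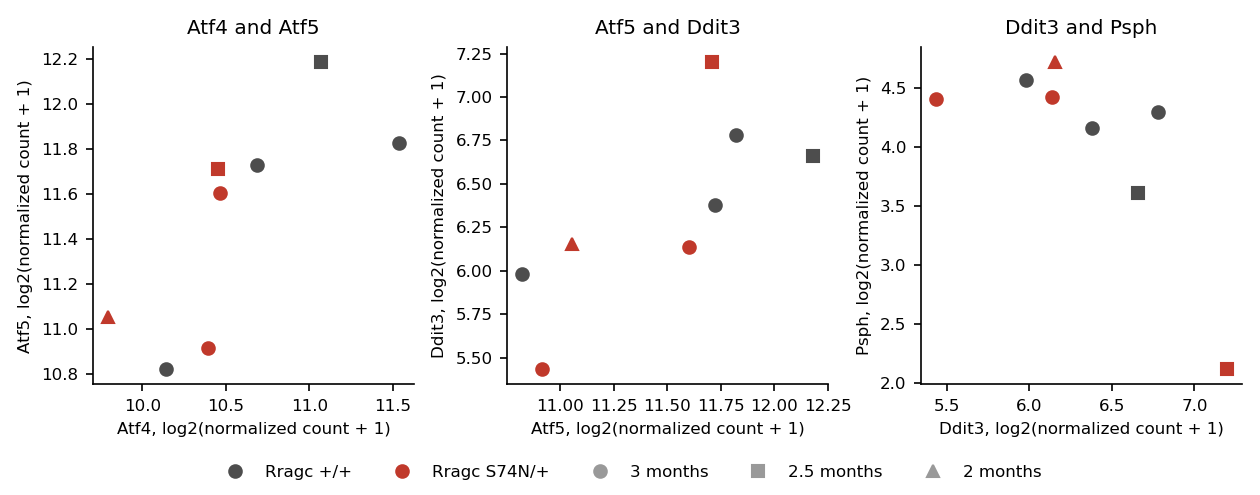
The 3 pairs of members with an unadjusted p under 0.05, log2(normalized count + 1) on both axes, with 1 point per liver, colour for genotype and symbol for age. In the right panel the liver with the highest Ddit3, at 146 normalized counts, is the one with the lowest Psph, at 3.34.

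**Figure D4:**
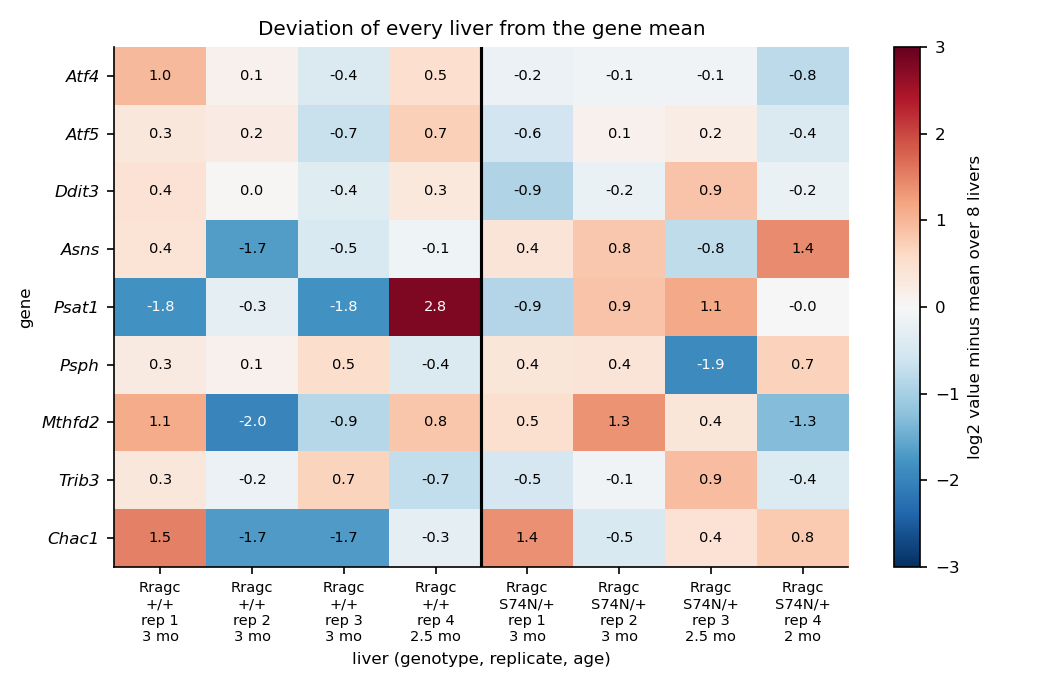
Deviation of each liver (columns, by genotype, replicate and age) from the mean of the gene over 8 livers (rows), as log2(normalized count + 1), from blue (low) to red (high). Rows differ in which livers are high: Rragc +/+ replicate 1 is among the highest 2 livers for 5 of 9 members, and Rragc +/+ replicate 2 for none.

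The pair of 2.5-month-old livers, 1 of each genotype, lay outside the range of the other 6 in 2 of the 9 listed members, Psph and Psat1. They also did so in 1 of 5 listed clock genes that peak near dawn (Arntl) and 4 of 9 that peak near dusk (Dbp, Nr1d1, Nr1d2 and Per3). The share of all tested genes that did so was not computed, so whether these counts are unusual cannot be judged. Dbp, a circadian output factor, stood at 57.9 and 126 normalized counts in these livers and between 3.74 and 11.3 in the others. Arntl, which encodes the clock activator BMAL1, stood at 21.5 and 20.1 in the same livers and between 56.6 and 146 in the others. The same livers had Psph counts of 11.2 and 3.34, against 16.8 to 25.3 in the rest, and Psat1 counts of 23.4 and 6.69, against 0 to 5.33. For Psat1 the second of these is 6 reads, the same number as in the 3-month-old Rragc S74N/+ replicate 2, so this liver is not set apart in Psat1 by its reads. Age and clock state cannot be told apart here, and their part in the Psph and Psat1 values was not tested. With age as a covariate the Atf4 difference was -0.50, the Asns difference 0.78, the Chac1 difference 0.97 and the Trib3 difference 0.036, all on the log2 scale and none past the limma threshold (adjusted p from 0.891).

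Upstream of ATF4, all 8 listed eIF2α kinases, cofactors and phosphatase subunits were tested, and none passed, adjusted or unadjusted. Gcn1l1, which encodes the coactivator that GCN2 needs, stood at 397, 336, 340 and 459 in Rragc +/+ and 242, 243, 430 and 162 in Rragc S74N/+ livers. Its log2 difference was -0.58 ± 0.27 (SE), with an unadjusted limma p of 0.0527 and an adjusted p of 0.846. Eif2ak1, the heme-regulated kinase, differed by 0.0034 and Ppp1r15b, the constitutive phosphatase subunit, by 0.080. The GCN2 gene itself, Eif2ak4, was low, with a mean of 29.8 normalized counts, and differed by 0.15. Of ATF4's dimer partners and related factors, 7 of 10 were tested and none passed. Cebpa was the most abundant, at a mean of 766 normalized counts, and differed by 0.19 on the log2 scale. Atf2 was higher in every Rragc S74N/+ liver than in any Rragc +/+ liver, with means of 110 and 78.7. Its log2 difference was 0.47 ± 0.23 (SE), with an unadjusted limma p of 0.0602 and an adjusted p of 0.846. Of all tested genes, 2.94% had groups that did not overlap.

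Of 24 other target genes of ATF4, 18 were listed and 15 tested, and none passed the adjusted threshold. At an unadjusted p under 0.05, 2 were higher and 1 was lower, and 11 of 15 had a log2 difference above 0, with a median log2 difference of 0.17. Over all tested genes, 5.17% had an unadjusted p under 0.05 in either direction, and 51.3% had a log2 difference above 0. Slc38a2, the amino acid transporter SNAT2, stood at 378, 395, 252 and 411 in Rragc +/+ and at 582, 462, 468 and 719 in Rragc S74N/+. All Rragc S74N/+ livers lay above all Rragc +/+ livers, and the log2 difference was 0.64 ± 0.23 (SE), with an unadjusted limma p of 0.0151 and an adjusted p of 0.846. Groups did not overlap in 2.94% of all tested genes. Got1, the cytosolic aspartate aminotransferase, had 335, 431, 320 and 197 in Rragc +/+ and 688, 627.5, 248.5 and 3231 in Rragc S74N/+. The 2-month-old liver was the highest by far, and the log2 difference was 1.31 ± 0.57 (SE), with an unadjusted limma p of 0.0389 and an adjusted p of 0.846. Gdf15, a secreted stress hormone, had 223, 219, 83.5 and 289 in Rragc +/+ and 56.9, 146, 154 and 50.6 in Rragc S74N/+. It was lower by 1.04 ± 0.44 (SE) on the log2 scale, with an unadjusted limma p of 0.0345 and an adjusted p of 0.846.

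Of 12 transfer RNA synthetases, another group of ATF4 targets, 1 had a log2 difference above 0 and 11 had one below 0, with a median of -0.23, although for Aars, at -0.0012, the mean count was higher in Rragc S74N/+ (329 against 323). None passed the adjusted limma threshold and, beside 5.17% of all tested genes, 1 of the 12 had an unadjusted p under 0.05. That gene was Cars, the cysteinyl synthetase, at 179, 138, 180 and 212 in Rragc +/+ and 68.9, 127, 170.5 and 79.9 in Rragc S74N/+. Its log2 difference was -0.74 ± 0.30 (SE), with an unadjusted limma p of 0.0267 and an adjusted p of 0.846. Wars, the tryptophanyl synthetase, was the synthetase above 0, at 0.68, with an unadjusted limma p of 0.0503. The 17 endoplasmic reticulum chaperones and regulators of the XBP1 and ATF6 arms, which share stress inputs with ATF4, had a median of -0.041, with none past either threshold. Hspa5, the chaperone BiP, differed by -0.041.

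The receptor side of Fgf21, the liver hormone that ATF4 and PPARα induce, was in the table. Klb, which encodes its coreceptor β-Klotho, stood at 83.9, 77.6, 77.8 and 112 in Rragc +/+ and 94.6, 112, 208 and 144 in Rragc S74N/+. The log2 difference was 0.62 ± 0.28 (SE), with an unadjusted limma p of 0.0441 and an adjusted p of 0.846. Among the 13 tested PPARα fasting genes, which include it, 2 were higher and 2 were lower at an unadjusted p under 0.05, with a median of -0.15 and none past the adjusted threshold. The other higher gene was Cyp4a14, by 1.99, and the lower ones were Plin2, by -0.89, and Vnn1, by -1.12. Among all tested genes, 5.17% had an unadjusted p under 0.05 in either direction.

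**Figure D5:**
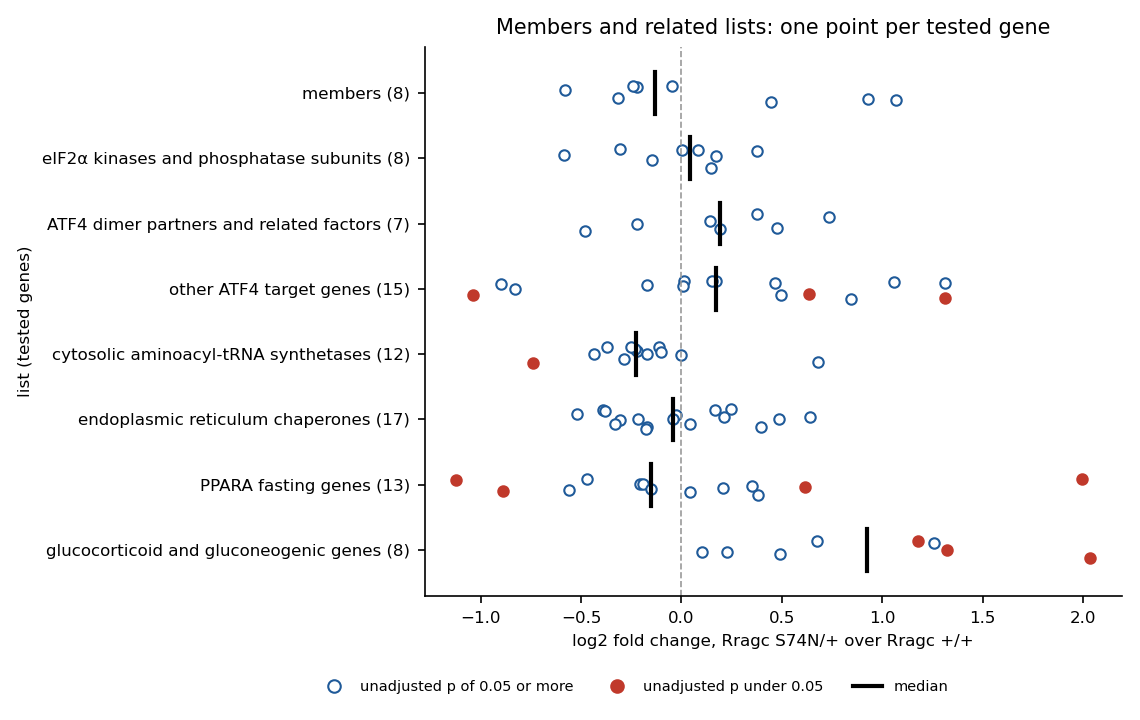
Log2 fold change (horizontal axis, Rragc S74N/+ over Rragc +/+) of the members and 7 related lists, with 1 point per tested gene, filled where the unadjusted limma p is under 0.05, and the median as a bar. The members' median is -0.13, and the glucocorticoid and gluconeogenic genes have the highest median, at 0.93.

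The 2-month-old liver, Rragc S74N/+ replicate 4, held the lowest Atf4 and the highest Asns and Psph, and stood high in several glucocorticoid and gluconeogenic genes. The 3-month-old Rragc S74N/+ replicate 1 also stood high in some of them, with G6pc at 3629 against 2211 in replicate 4. Tsc22d3 in replicate 4, at 167, lay within the Rragc +/+ range of 76.4 to 220. The list of 9 such genes had 8 tested, all with a log2 difference above 0. Their median was 0.93, and 3 had an unadjusted p under 0.05 (Igfbp1, Pck1 and Fkbp5), beside 5.17% of all tested genes in either direction. Except in Igfbp1, the livers of the genotypes overlapped, and 2.94% of all tested genes had groups that did not. Tat stood at 886, 77.3, 95.8 and 1520 in Rragc S74N/+ replicates 1 to 4, against 99.1 to 284 in Rragc +/+. Igfbp1, which encodes an insulin-repressed binding protein, stood at 275, 235, 80.6 and 168 in Rragc +/+ and at 1191, 338, 279 and 2252 in Rragc S74N/+. Its log2 difference was 2.04 ± 0.59 (SE), with an unadjusted limma p of 0.00411 and an adjusted p of 0.846. The 9 genes summed to 2261 to 3363 normalized counts in Rragc +/+ and 2465 to 10657 in Rragc S74N/+, and the part of these genes in the members' values was not tested.

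Markers of other cells were counted beside the members. Stellate cell and fibroblast markers summed to 2358 to 2695 in Rragc +/+ and 1968 to 2588 in Rragc S74N/+. In that list Ecm1 and Colec11 were lower in every Rragc S74N/+ liver than in any Rragc +/+ liver, and the others overlapped. Groups that did not overlap were found in 2.94% of all tested genes. Cholangiocyte markers summed to 153 to 394 in Rragc +/+ and 117 to 380 in Rragc S74N/+, and neutrophil markers to 36.8 to 136 and 34.5 to 93.8. Of 11 Kupffer cell markers, 3 were higher at an unadjusted p under 0.05 (Marco, Adgre1 and C1qc). Over all tested genes, 5.17% had an unadjusted p under 0.05 in either direction. Other Kupffer cell markers had log2 differences below 0, among them Csf1r at -0.38, Clec4f at -0.37 and C1qa at -0.065. The list summed to 3058 to 4797 in Rragc +/+ and 3088 to 5097 in Rragc S74N/+. Summed lymphocyte markers ran from 68.3 to 130 in Rragc +/+ and from 159 to 241 in Rragc S74N/+. Igkc carried this separation, since the other 7 listed lymphocyte markers summed to 21.5 to 71.8 and 27.9 to 73.4, and Cd4 was at 3.73 to 11.3 in Rragc +/+ and 0 to 1.11 in Rragc S74N/+. Endothelial markers summed to 1197 to 1561 and 1222 to 1567. Among them, Pecam1 was higher by 0.88 on the log2 scale (unadjusted limma p of 0.0151). Lyve1 was higher by 1.03 (unadjusted limma p of 0.0169). Stab1, Stab2, Fcgr2b and Clec4g had log2 differences below 0. Kidney tubule markers summed to 245 to 391 in Rragc +/+ and 68.0 to 119 in Rragc S74N/+. They include Gpx3, the 1 gene past the adjusted threshold over all genes. Gpx3 stood at 125 to 191 and 34.9 to 56.9, and Kap at 67.9 to 163 and 6.69 to 46.2. Kap had an unadjusted limma p of 0.00131. The other listed kidney tubule markers overlapped between genotypes. Of 10 pancreatic acinar markers, 1 was listed, Cela1. The part of these markers in the members' values was not tested.

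By Pearson's r over the 8 livers, the 5 tested genes most like Asns among 11166 others were Clec12a at 0.97, Acacb and Xkr8 at 0.95, and Hoxb3 and Angptl2 at 0.93. For Chac1 they were Pfkl at 0.96, Clec1a and Bcap29 at 0.95, and Acot6 and Arl13b at 0.92. These are the highest of many correlations over 8 values that share libraries, and no p is attached to them.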

How the data were processed

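Whole liver RNA was profiled with the QuantSeq 3′ FWD kit in 4 Rragc S74N/+ and 4 Rragc +/+ mice. The authors checked reads with FastQC 0.11.7, aligned them to GRCm38 with TopHat2 2.0.10, Bowtie 1.0.0 and SAMtools 0.1.19, and counted them by strand with HTSeq 0.6.1 against GENCODE. The deposited values are a signal, the normalized read count per gene and liver, scaled by size factors from 0.707 to 1.23. Every value (100%) was a whole multiple of its liver's step, within a relative tolerance of 1e-06, so whole reads were recovered. No molecular identifiers are stated for liver, so intervals and floors cover counting error only.

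Members and lists were chosen with earlier results of these data known. The 11174 genes whose mean was 10 or more were compared between genotypes with limma 3.58.1 in R 4.3.3 (trended empirical Bayes), on log2(normalized count + 1) with no other term, and p-values were adjusted over these genes by the Benjamini-Hochberg method at 0.05. Fold changes on this scale understate changes of low genes. On the recovered reads, edgeR 4.0.16 (quasi-likelihood) called 1 gene and DESeq2 1.42.0 called 10. Further settings were pseudocounts of 0.1 and 5, a filter at a mean of 50 or none, TMM or upper-quartile rescaling, an age term, only 3-month-old mice, no 2.5-month-old mice (added after seeing the data), and each liver left out. Single genes were also tested by exact permutation. All members were named. Of other lists, genes with an unadjusted p under 0.05 or up to 4 of the highest mean could be named, and not all were. Atf2, Eif2ak4, Tsc22d3, Wars and the clock genes were named after their values were seen. Scripts were tested on simulated data.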

Additional observations from a re-analysis of the deposited data

Results flagged for a closer look

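With 4 livers per genotype and 9 listed members, 18 groups were examined for a value far from the rest, of which chance gives about 0.9. Of these, 2 stood apart by Dixon's criterion at 95%. Atf4 in Rragc S74N/+ replicate 4, the 2-month-old mouse, was 886 normalized counts against 1341 to 1412 in the other three livers of its genotype, a gap of 0.89 of the range. Psph in Rragc S74N/+ replicate 3, a 2.5-month-old mouse, was 3.34 against 20.2 to 25.3, a gap of 0.88 of the range and a count of 3 reads. Without the first liver the Atf4 difference was -0.42 on the log2 scale, and without the second the Psph difference was 0.36. What sets these livers apart was not tested.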

How the results depend on the processing

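The number of members past the adjusted threshold was 0 in every setting run, with 0 to 1 members at an unadjusted p under 0.05 and 0 to 2 when a liver was left out. The median difference of the members ran from -0.27 to 0.0067 in other settings and from -0.19 to 0.045 over the leave-one-out fits. No pair of members passed in any setting, and the r of Ddit3 and Psph lay between -0.86 and -0.53 with a liver left out. Atf4, Atf5, Asns and Chac1 kept their sign in every fit that gave a value, and left-out livers moved Atf4 from -0.82 to -0.36, Atf5 from -0.59 to -0.14, Asns from 0.53 to 1.34 and Chac1 from 0.68 to 1.75. Asns fell below the filter and had no value in 4 of the leave-one-out fits and in the 3-month-old mice, and a mean of at least 50 left 4 members. Signs turned in some fits for Trib3, Psph, Mthfd2 and Ddit3, and the cause was not tested. Trib3 turned to 0.036 with age as a covariate. Psph turned to 0.076 in 3-month-old mice and to 0.18 without the 2.5-month-old mice (a setting added after seeing the data). Psph was also at 0.030 with edgeR and 0.029 with DESeq2. Leaving out a liver gave -0.36 to 0.17 for Trib3, -0.51 to 0.36 for Psph, -0.14 to 0.95 for Mthfd2 and -0.54 to 0.045 for Ddit3.

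The number of genes past the adjusted threshold over all genes was 1 with limma, 0 with age as a covariate (415 genes at an unadjusted p under 0.05), 0 in the 3-month-old mice (640), 0 without the 2.5-month-old mice (1209), 10 with DESeq2 (675) and 0 to 2 when a liver was left out (312 to 1682). It was 2 without Rragc S74N/+ replicate 3 and 0 without each of the other livers. The limits are depth and number: Asns, Psph, Chac1 and Psat1 rest on 37 reads or fewer per liver, and Chac1 differed 12.3-fold among the 4 Rragc +/+ livers. No paired analysis was possible because replicate numbers were given by sample order and tie no livers together.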
